A study of Mus musculus with 8 samples.

Results

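The genes described here encode the machinery that licenses replication origins and runs the replication fork. They are 38 named genes of the 54838 gene rows in the deposited count tables, each matched to exactly 1 row through the GENCODE vM21 gene models, and every one was counted in all 8 libraries. The study measured polyadenylated RNA by directional RNA sequencing in mouse embryonic fibroblasts (MEFs), primary connective tissue cells taken from embryos, and its title and design concern acidification inside senescent cells. There were 4 groups of 2 libraries: proliferating MEFs, senescent MEFs (named n-Sen), n-Sen kept in control medium and n-Sen kept in alkaline medium. Senescence was set by RO3306, an inhibitor of the mitotic kinase CDK1, for 16-20 h, then RO3306 with nutlin3a for 8 h, then nutlin3a alone for 48 h. Nutlin3a blocks MDM2 and so stabilises p53. The cells then stayed in 100 nM BI-2536, an inhibitor of the mitotic kinase PLK1, for 14 days to remove cells that still divided. For the control and alkaline groups, HEPES-buffered medium of adjusted pH followed for 24 h; the pH itself is not stated in the sources used here. The labels carry the same protocol text on all 8 libraries, and the proliferating ones are told apart by their title and a treatment label of control. All n-Sen groups share the drug sequence, so senescence, the 3 drugs and the time in culture cannot be told apart.

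Before S phase, the origin recognition complex, CDC6 and CDT1 load the ring-shaped MCM2-7 helicase onto origins, a step called licensing that geminin restrains by binding CDT1. In S phase, CDC45 and the GINS complex join MCM2-7 and turn it into the active helicase. The polymerases then copy the opened strands on the PCNA clamp. Many of these genes are known targets of E2F transcription factors, which RB-family proteins hold back in cells that have left the cycle, and p53 acts on that step through the CDK inhibitor p21.

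Library totals ran from 40608517 to 54183060 counts. Within a group, the pair of libraries differed beyond counting error (chi-square divided by its degrees of freedom, 4.63 to 7.39), and each was kept as a library of its own. The labels do not say whether they came from separate cultures, and the p-values measure only the spread between these libraries. Levels are in CPM, counts scaled to library size, on 1 scale over the 8 libraries, by edgeR's trimmed mean of M values (TMM). Fibroblast markers, 10 of 10 detected in every library, summed to 16894 to 17218 CPM in proliferating and 37707 to 38552 CPM in n-Sen cells. Of these 10, 9 were called higher in n-Sen and 1, Thy1, lower (log2 fold change -0.22 ± 0.053 SE). Macrophage markers summed to 50.7 to 56.6 CPM in proliferating and 1162 to 1235 CPM in n-Sen cells, with 12 of 12 called higher and none at 0 in any library. Epithelial markers summed to 77.4 to 86.2 CPM in proliferating and 8.23 to 8.69 CPM in n-Sen cells, and endothelial markers to 26.7 to 33.0 and 5.54 to 6.86 CPM, with Epcam at 0 in all 6 senescent libraries and at 0.0480 and 0.119 CPM in proliferating ones. Of 5 epithelial markers tested, 4 were called lower and 1, Cdh1, higher (0 and 0.0398 against 0.214 and 0.333 CPM), and Krt19 made up most of the proliferating sum, at 59.7 and 52.2 CPM. Of 6 endothelial markers, 3 were tested, with 2 called lower and 1, Tek, not called. Kdr made up most of the endothelial sum in proliferating cells, at 24.4 and 20.8 CPM.

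All 38 replication genes fell in n-Sen against proliferating cells. Their summed level dropped from 2266 and 2212 CPM to 321.8 and 310.9 CPM. The fall was steepest for the loader Cdc6, 42.9-fold, and smallest for the GINS subunit Gins4, 1.88-fold. Calls are at an adjusted p under 0.05 in the edgeR quasi-likelihood test, with the adjustment of Benjamini and Hochberg over all 19264 genes tested, and 33.1% of all genes tested were called lower by it. No replication gene was called higher, against 34.0% of all genes. The list was chosen with earlier results of these data known, so these shares are a description. At an unadjusted p under 0.05 the number higher was also 0. DESeq2 gave the same 38 lower and 0 higher, against 5706 and 5909 among all genes. For each of the 38 genes, both n-Sen libraries lay under both proliferating ones, which held for 41.5% of all genes tested in that direction and for 41.9% in the other. The fall was at least 4-fold for 30 of the genes, a size whose share over all genes was not counted. It was at least 8-fold for 23, and 2.24% of all genes tested were called lower at that 8-fold size. The median log2 fold change was -3.51, beside 0.00 over all genes tested. In these bulk libraries, fewer cells with a transcript and less of it per cell cannot be told apart.

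**Figure D1:**
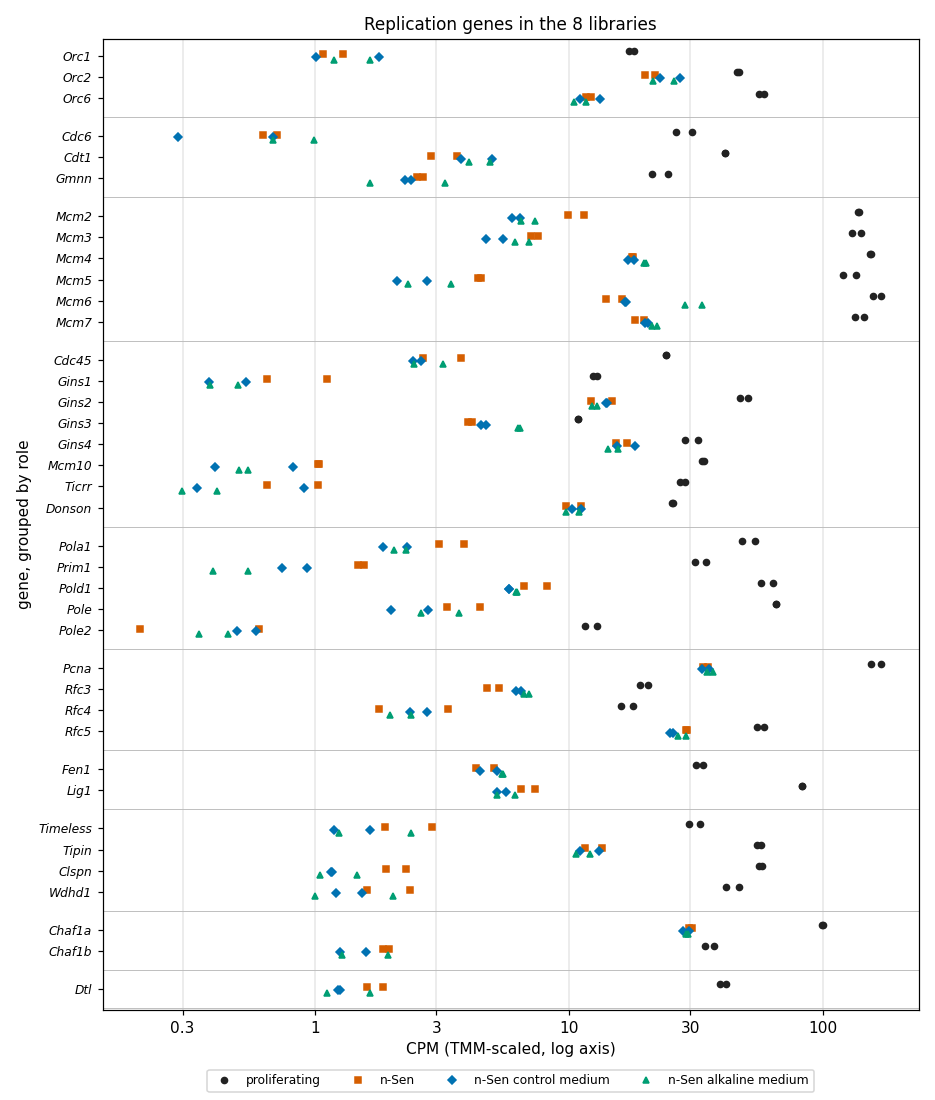
Level of each replication gene in each of the 8 libraries, in TMM-scaled CPM on a log axis, grouped by role; each point is 1 library. The proliferating points lie to the right of all 6 senescent points for every gene, with Cdc6, Mcm10, Ticrr and Pole2 near or under 1 CPM in the senescent cells and Gins4, Rfc5, Orc2 and Gins3 among those closest to their proliferating level.

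The origin recognition complex marks origins, and its 3 genes on the list fell by 2.23-fold to 14.9-fold. Orc1, the subunit that binds and hydrolyses ATP and whose protein is removed and remade in each cycle, measured 18.0 and 17.2 CPM in the 2 proliferating libraries and 1.29 and 1.07 CPM in n-Sen (log2 fold change -3.90 ± 0.16 SE, adjusted p = 5.54e-13). Orc2, a core subunit, measured 45.8 and 46.8 CPM against 21.7 and 19.8 CPM (log2 fold change -1.16 ± 0.081 SE, adjusted p = 9.42e-10). Its exons share 1150 bases with Nif3l1 on the other strand. Orc6, the smallest subunit, measured 58.6 and 56.2 CPM against 12.2 and 11.6 CPM (log2 fold change -2.27 ± 0.083 SE, adjusted p = 1.27e-13). The 2 groups did not overlap for any of the 3, and n-Sen kept 6.70% of the proliferating level of Orc1, 20.8% of Orc6 and 44.9% of Orc2. Other subunits of the complex, outside the list, fell less or not at all: n-Sen kept 60.3% of Orc5, 82.4% of Orc3 and 98.4% of Orc4. Orc5 and Orc3 were called lower and Orc4 was not called.

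The loaders and their inhibitor all fell by more than 8-fold. Cdc6 (ENSMUSG00000017499, mm10 chr11:98907801-98923940, plus strand), the ATPase that recruits the helicase, measured 30.6 and 26.3 CPM in proliferating and 0.622 and 0.704 CPM in n-Sen cells (log2 fold change -5.41 ± 0.16 SE, adjusted p = 8.96e-15). The n-Sen values rest on 29 and 38 counts. Cdt1, which brings MCM2-7 to the origin, measured 41.1 and 41.1 CPM against 2.85 and 3.61 CPM (log2 fold change -3.66 ± 0.12 SE, adjusted p = 2.35e-14). Gmnn, which encodes geminin, the inhibitor of CDT1, fell as well, from 21.3 and 24.6 CPM to 2.51 and 2.65 CPM (log2 fold change -3.15 ± 0.14 SE, adjusted p = 1.35e-12). Dtl encodes the substrate receptor through which CUL4-DDB1 marks CDT1 for degradation on PCNA. Its level went from 41.6 and 39.1 CPM to 1.84 and 1.59 CPM (log2 fold change -4.56 ± 0.12 SE, adjusted p = 2.31e-15). Thus the transcripts of CDT1, geminin and DTL were lower together, by 12.7-fold, 8.90-fold and 23.5-fold.

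MCM2-7 is a ring of 6 different subunits, and all 6 transcripts fell, by 7.32-fold (Mcm7) to 28.7-fold (Mcm5). Per kilobase of principal transcript, their proliferating means ran from 37.6 to 55.9 CPM per kb, and from 19.8 to 42.8 CPM per kb where the length of all annotated exons was used instead, an alternative chosen after seeing the data. In n-Sen the means ran from 1.31 (Mcm5) to 6.41 (Mcm7) CPM per kb of principal transcript. Mcm5 measured 135 and 119.7 CPM in proliferating and 4.48 and 4.39 CPM in n-Sen libraries (log2 fold change -4.84 ± 0.088 SE, adjusted p = 1.77e-17). Mcm3 measured 141 and 130.0 against 7.55 and 7.07 CPM (log2 fold change -4.21 ± 0.078 SE, adjusted p = 2.32e-17). MCM2 and MCM5 border the gate through which DNA enters the ring. Mcm2 measured 139 and 137 against 11.4 and 9.91 CPM (log2 fold change -3.70 ± 0.076 SE, adjusted p = 8.05e-17). Mcm6 measured 157 and 169 against 16.1 and 14.0 CPM (log2 fold change -3.44 ± 0.076 SE, adjusted p = 2.12e-16), and Mcm4, which forms the catalytic core with MCM6 and MCM7, 153 and 154 against 17.9 and 17.6 CPM (log2 fold change -3.11 ± 0.065 SE, adjusted p = 8.81e-17). Mcm7 fell least of the 6, from 144 and 133 to 18.2 and 19.8 CPM (log2 fold change -2.87 ± 0.071 SE, adjusted p = 8.43e-16). Its exons overlap Mir25, Mir93, Ap4m1 and Cops6. Of the summed MCM2-7 level per kilobase, Mcm5 made up 14.6 and 13.4% in the proliferating libraries and 5.55 and 5.65% in n-Sen, while Mcm7 made up 17.9 and 17.0% in the former and 25.7 and 29.1% in the latter.

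The genes that turn the loaded ring into a moving helicase held both some of the largest and the smallest falls. Ticrr, which brings TOPBP1 to the loaded ring, measured 28.7 and 27.3 CPM in proliferating and 1.03 and 0.648 CPM in n-Sen cells (log2 fold change -5.07 ± 0.17 SE, adjusted p = 2.75e-14). Mcm10, needed to start unwinding, measured 34.0 and 33.5 against 1.03 and 1.04 CPM (log2 fold change -5.02 ± 0.13 SE, adjusted p = 2.29e-15). Cdc45 encodes the helicase cofactor and fell 7.52-fold. GINS is a complex of 4 proteins in equal number, and its transcripts kept 6.94% to 53.1% of their proliferating level. Gins1 dropped from 12.9 and 12.4 to 0.643 and 1.11 CPM (log2 fold change -3.82 ± 0.21 SE, adjusted p = 2.41e-11). Gins2 and Gins3 kept 27.4% and 37.6%. Gins4 kept 53.1%, at 32.0 and 28.6 against 16.9 and 15.3 CPM (log2 fold change -0.91 ± 0.095 SE, adjusted p = 1.74e-07), and its libraries did not overlap either. Gins4 and Gins3 exons overlap no other gene, while 2758 bases of Gins2 exons lie opposite Gse1. Donson, which carries GINS to the ring, kept 40.8%.

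All 5 polymerase and primase genes on the list fell by at least 8-fold. Pole2, the second subunit of the leading strand polymerase, measured 12.8 and 11.6 CPM in proliferating and 0.600 and 0.204 CPM in n-Sen cells (log2 fold change -4.96 ± 0.27 SE, adjusted p = 2.42e-11). The Pole2 value was -5.87 without n-Sen replicate 1 and -4.34 without n-Sen replicate 2. Its catalytic partner Pole measured 65.4 and 65.5 against 4.46 and 3.30 CPM (log2 fold change -4.08 ± 0.11 SE, adjusted p = 2.72e-15). Prim1, the primase that lays the RNA primer, and Pola1, the catalytic subunit of polymerase alpha that extends it, fell 21.8-fold and 14.6-fold. Pold1, the catalytic subunit of the lagging strand polymerase, fell 8.17-fold, the least of the 5. Further subunits outside the list fell less: n-Sen kept 17.6% of Pola2, 20.9% of Pold2 and 22.7% of Pold3. For Prim2, Pole4 and Pole3 it was 37.1%, 49.2% and 60.4%, and Pold4 rose, as given below.

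The clamp and its loader fell by 1.96-fold to 6.62-fold. Pcna, the clamp that also serves DNA repair, measured 169.7 and 155 CPM in proliferating and 33.7 and 35.1 CPM in n-Sen cells (log2 fold change -2.23 ± 0.064 SE, adjusted p = 5.35e-15). Rfc5, a subunit shared by the clamp loader and its variants, measured 58.5 and 54.98 against 28.9 and 29.1 CPM (log2 fold change -0.97 ± 0.073 SE, adjusted p = 2.31e-09). Rfc3 and Rfc4 kept 25.4% and 15.1%. Of the Okazaki fragment enzymes, the flap nuclease Fen1 kept 14.3% and the ligase Lig1 8.36% of the proliferating level.

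Among the genes that protect and couple the fork, Clspn, which encodes the checkpoint mediator claspin, measured 55.8 and 57.7 CPM in proliferating and 2.27 and 1.91 CPM in n-Sen cells (log2 fold change -4.77 ± 0.11 SE, adjusted p = 3.72e-16). Wdhd1 (AND-1), which tethers polymerase alpha to the helicase, fell 22.2-fold. Timeless and Tipin encode the 2 partners of 1 complex, and fell 13.1-fold and 4.45-fold. Chaf1a and Chaf1b, the large and middle subunits of the histone chaperone CAF-1, both fell. Chaf1b dropped from 37.2 and 34.4 to 1.95 and 1.85 CPM (log2 fold change -4.23 ± 0.12 SE, adjusted p = 5.91e-15). Chaf1a went from 98.7 and 99.6 to 30.6 and 29.5 CPM (log2 fold change -1.72 ± 0.065 SE, adjusted p = 1.96e-13), and 4648 bases of its exons lie opposite Ubxn6. Differences between partners were not themselves tested for any complex.

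**Figure D2:**
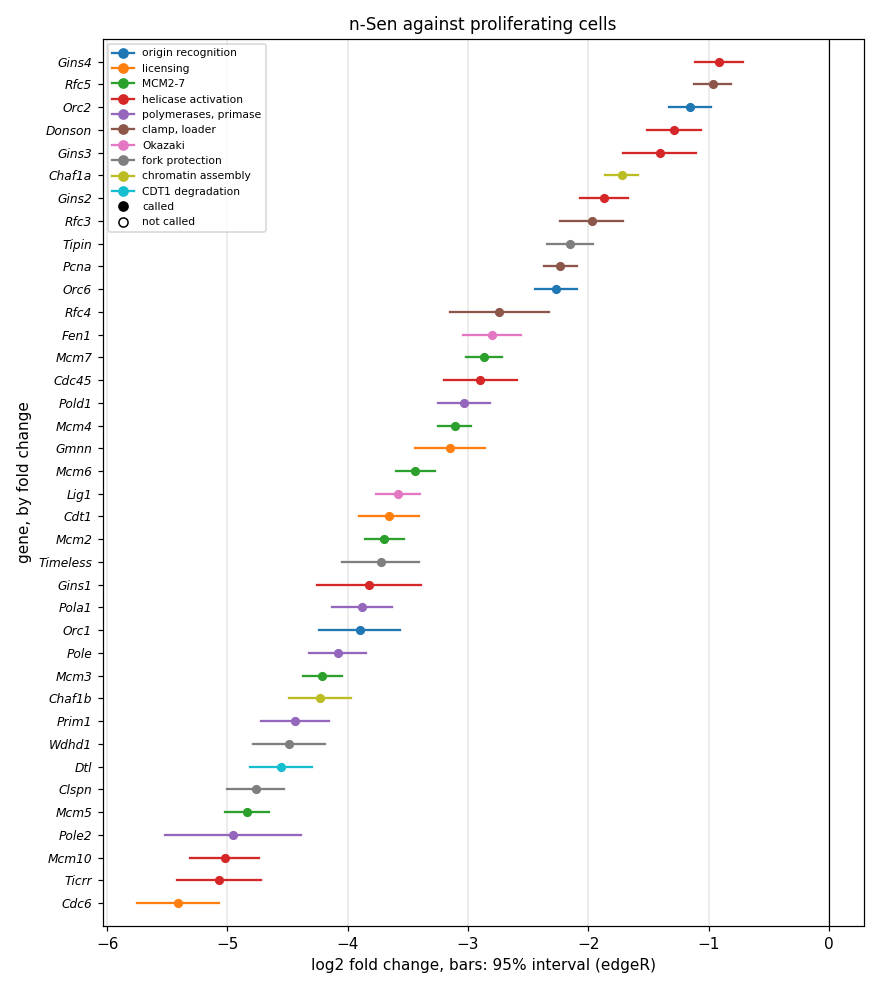
Log2 fold change of each replication gene in n-Sen against proliferating cells with its 95% interval, coloured by role and ordered by size. All 38 intervals lie under 0, from Cdc6 at -5.41 to Gins4 at -0.91, and members of 1 complex such as Gins1 and Gins4 lie far apart.

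By the level that remained in n-Sen, 9 genes kept under 5% of the proliferating mean, 11 kept 5 to under 10%, 10 kept 10 to under 25%, and 8 kept 25% or more. The last were Rfc3, Gins2, Chaf1a, Gins3, Donson, Orc2, Rfc5 and Gins4. Exons of 17 of the 38 genes overlap those of another gene. Of the 8 that kept 25% or more, 5 are among these 17 and 3 are not. The median log2 fold change was -2.87 for the 17 and -3.70 for the other 21. Fractional counts occurred in all 17 and in 6 of the other 21. The part that overlapping genes and fractional counts have in these values was not tested. Mitosis markers moved with the replication genes: all 12, among them Mki67 and Top2a, were called lower, with a median log2 fold change of -5.04, and summed to 1813 and 1851 CPM in proliferating against 64.2 and 51.6 CPM in n-Sen. Macrophage markers rose over the same comparison, as given above, and the part of either set in the replication genes' fall was not tested.

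Of 44 further replication genes, 38 were called lower in n-Sen and 2 higher, against 33.1% and 34.0% of all genes tested. The other 4 were not called, and the median log2 fold change of the 44 was -1.70. The smallest adjusted p belonged to Topbp1, which activates the checkpoint kinase ATR and helps to load CDC45, at 179.7 and 185 CPM against 39.9 and 41.0 CPM (log2 fold change -2.17 ± 0.059 SE, adjusted p = 2.74e-15). Next came Dbf4, the activator of the CDC7 kinase that phosphorylates MCM2-7, at 88.7 and 97.7 against 12.1 and 9.98 CPM (log2 fold change -3.08 ± 0.092 SE, adjusted p = 8.36e-15). The histone chaperone Asf1b followed, at 42.0 and 36.3 against 1.29 and 1.81 CPM (log2 fold change -4.64 ± 0.14 SE, adjusted p = 1.43e-14). A pair rose. Pold4, the small subunit of polymerase delta, measured 6.72 and 5.79 against 12.5 and 12.2 CPM (log2 fold change 0.98 ± 0.13 SE, adjusted p = 3.76e-06), and Cul4a, the scaffold of the CUL4-DDB1 ligase, 151 and 145 against 173 and 171 CPM (log2 fold change 0.21 ± 0.052 SE, adjusted p = 0.00148). Orc4, Rnaseh2c, Smarcal1 and Zranb3 did not pass the test.

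Because these genes fell together, their promoters were searched for the words of E2F sites, TTTCCCGC, TTTGGCGC, TTTCGCGC and TTTGCCGC, on both strands. RefSeq promoter windows of build GRCm38.p6, from 250 bases before the transcription start to 50 after it, were matched for 31 of the 38 genes by symbol, in 36 windows; Gmnn, Mcm4, Gins1, Gins2, Gins4, Pole and Tipin are the others. A word was found for 15 of the 31 genes (48.4%), in 15 of the 36 windows (41.7%), against 2.26% of all 32851 windows and 3.64% of the 15345 windows of genes tested in n-Sen against proliferating cells. The words can overlap, since TTTCGCGC and the reverse complement of TTTGGCGC share bases, as they do in Mcm5 and Mcm6. CCAAT, the NF-Y word, was found in 58.3% of the 36 windows, against 37.4% of all windows and 37.3% of those of tested genes. The CHR words TTTGAA and TTCGAA, known from mitotic genes, were found in 16.7%, against 19.2% and 14.3%. The GC box GGGCGG was found in 63.9%, against 35.7% and 58.8%. All words were searched on both strands. A match is a run of letters in the window and not a measured binding site.

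The 200 bases before the start are shown 5′ to 3′ on the gene's strand for 4 genes with an E2F word there and for 2 without, one of which fell steeply (Ticrr) and one little (Orc2, shown at the upstream one of its listed starts). Capitals mark the E2F words; where 2 overlap, the capitals run over both.
Mcm5 (RefSeq, GRCm38.p6, chr8:75109309-75109508, plus strand): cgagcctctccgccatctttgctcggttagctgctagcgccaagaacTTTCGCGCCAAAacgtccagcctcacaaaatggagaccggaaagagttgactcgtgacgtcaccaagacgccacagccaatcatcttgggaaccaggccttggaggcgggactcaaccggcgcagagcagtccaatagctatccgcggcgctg
Mcm6 (RefSeq, GRCm38.p6, chr1:128359706-128359905, minus strand): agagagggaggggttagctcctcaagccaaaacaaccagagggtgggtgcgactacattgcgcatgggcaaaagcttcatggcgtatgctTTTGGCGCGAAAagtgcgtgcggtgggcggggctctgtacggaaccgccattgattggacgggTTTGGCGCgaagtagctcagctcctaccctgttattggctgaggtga
Dtl (RefSeq, GRCm38.p6, chr1:191575545-191575744, minus strand): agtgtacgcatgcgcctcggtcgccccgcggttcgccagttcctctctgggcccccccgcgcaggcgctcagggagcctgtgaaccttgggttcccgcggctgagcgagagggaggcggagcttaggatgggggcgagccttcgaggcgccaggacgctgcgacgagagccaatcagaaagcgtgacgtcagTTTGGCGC
Pola1 (RefSeq, GRCm38.p6, chrX:93632156-93632355, minus strand): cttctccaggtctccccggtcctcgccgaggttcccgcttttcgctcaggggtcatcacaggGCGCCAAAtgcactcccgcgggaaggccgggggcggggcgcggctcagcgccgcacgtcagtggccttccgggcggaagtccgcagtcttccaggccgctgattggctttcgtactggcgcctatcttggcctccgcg
Ticrr (RefSeq, GRCm38.p6, chr7:79659996-79660195, plus strand): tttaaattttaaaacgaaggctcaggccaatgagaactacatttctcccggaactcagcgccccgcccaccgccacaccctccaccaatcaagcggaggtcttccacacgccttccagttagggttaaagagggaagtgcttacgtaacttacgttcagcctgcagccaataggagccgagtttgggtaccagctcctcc
Orc2 (RefSeq, GRCm38.p6, chr1:58505110-58505309, minus strand): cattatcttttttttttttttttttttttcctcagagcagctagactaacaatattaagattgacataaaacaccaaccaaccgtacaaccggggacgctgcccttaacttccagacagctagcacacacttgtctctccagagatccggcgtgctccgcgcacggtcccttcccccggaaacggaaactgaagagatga

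In Mcm5 the overlapping pair of words begins 153 bases before the start, and in Mcm6 an overlapping pair begins at 110 bases and a lone word at 47 bases before it. Dtl carries its word at 8 bases before the start and Pola1 at 138 bases. The genes with an E2F word had a median log2 fold change of -3.88 (15 genes) and those without -2.85 (16 genes), and both sets covered most of the range. Cdc6 at -5.41 and Gins3 at -1.41 both have a word. Ticrr at -5.07 and Rfc5 at -0.97 have none. Timeless is counted among those without, but its only listed start (128238066) lies inside the annotated gene, which begins at 128232065. Cdc6, counted among those with a word, also has its only listed start (98908151) inside the gene, which begins at 98907801. Other listed starts lie inside the gene as well, such as those of Gins3, with a word, and Pcna, without. For the CHR words the median was -2.83 with a match (6 genes) and -3.88 without (25 genes). For CCAAT it was -3.70 with a match (19 genes) and -3.62 without (12 genes). These medians are a description, with no test.

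**Figure D3:**
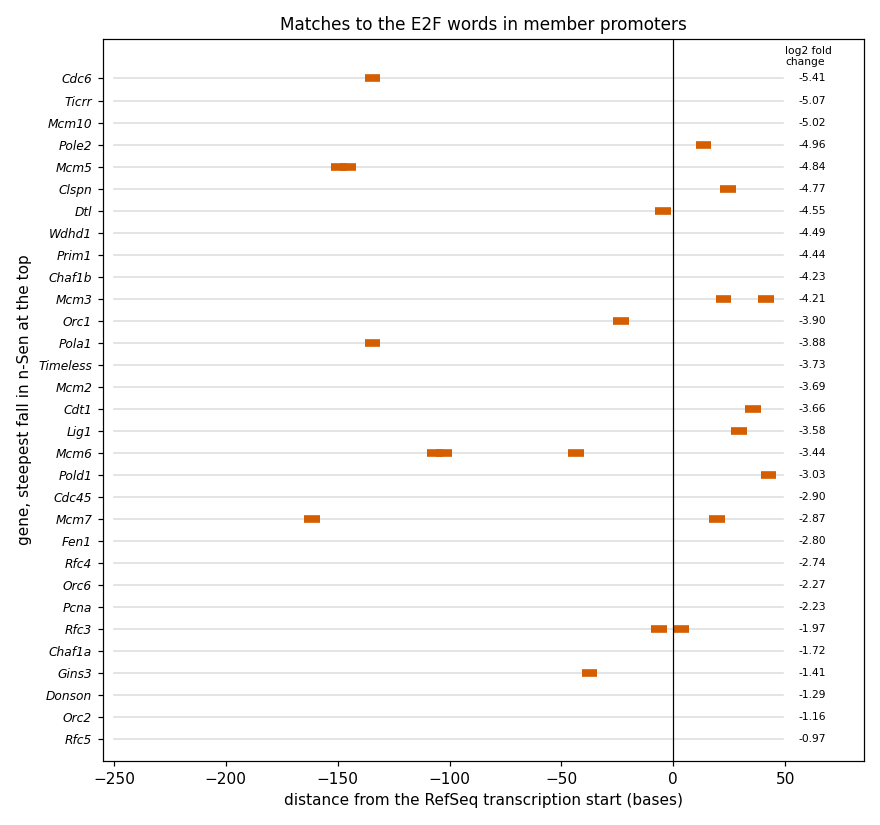
Position of each match to the E2F words in the promoter windows of 31 replication genes, in bases from the RefSeq transcription start, with the log2 fold change in n-Sen at the right and the steepest fall at the top. Matches are spread over 15 genes, from Cdc6 at -5.41 to Gins3 at -1.41.

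The design asks what alkaline medium does to senescent cells, and among the replication genes Mcm6 and Gins3 rose, while the other 36 did not pass the test. Mcm6, a subunit of the catalytic core of the helicase (ENSMUSG00000026355, mm10 chr1:128331590-128359664, minus strand), measured 16.5 and 16.8 CPM in the control libraries, and the alkaline ones held 33.5 and 28.5 CPM. Both alkaline libraries lay above both control libraries and above both n-Sen libraries of the other table. The log2 fold change was 0.89 ± 0.091 SE (95% interval 0.70 to 1.08, edgeR adjusted p = 1.18e-07). It stayed called in 10 of 10 alternatives, at a log2 fold change of 0.77 to 0.996. The mean was 9.24% of the proliferating level in n-Sen, 10.2% in control medium and 19.1% in alkaline medium. The 2 genes looked up after this value was seen, Dars and Ubxn4, lie on either side of Mcm6 and did not pass the test. Dars had a log2 fold change of -0.01 (edgeR adjusted p = 0.943), and its libraries overlapped. Ubxn4 had 0.09 (95% interval -0.0009 to 0.185, edgeR adjusted p = 0.168), with both alkaline libraries above both control libraries. No other gene nearby was looked up, and a change shared by the region was not tested. Exons of Mcm6 overlap no other gene, yet its deposited counts were fractional in 4 of the 8 libraries, and the part of such counts in the change was not tested.

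The other 5 MCM subunits did not pass the test. Mcm4 measured 17.1 and 18.0 CPM in control and 20.1 and 19.7 CPM in alkaline medium (95% interval of the log2 fold change -0.01 to 0.37, edgeR adjusted p = 0.200). Mcm7 measured 19.8 and 20.5 against 22.1 and 21.2 CPM (-0.08 to 0.28, edgeR adjusted p = 0.512). For Mcm3, 4.72 and 5.49 against 6.96 and 6.14 CPM gave an interval of 0.03 to 0.67 (edgeR adjusted p = 0.122, and 0.0313 with all 8 libraries in the fit). Both alkaline libraries lay above both control libraries for Mcm2, Mcm3, Mcm4 and Mcm7 and not for Mcm5, and all 6 fitted values were above 0, with a median of 0.21. The intervals of Mcm2 and Mcm5 were -0.15 to 0.46 and -0.26 to 0.73. None of these 4 upper bounds for Mcm2, Mcm3, Mcm4 and Mcm7 reached the lower bound of Mcm6, 0.70, while that of Mcm5 did. The difference between subunits was not itself tested. Of the summed MCM2-7 level per kilobase, Mcm6 made up 26.7 and 26.2% with control and 38.6 and 35.8% with alkaline medium.

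**Figure D4:**
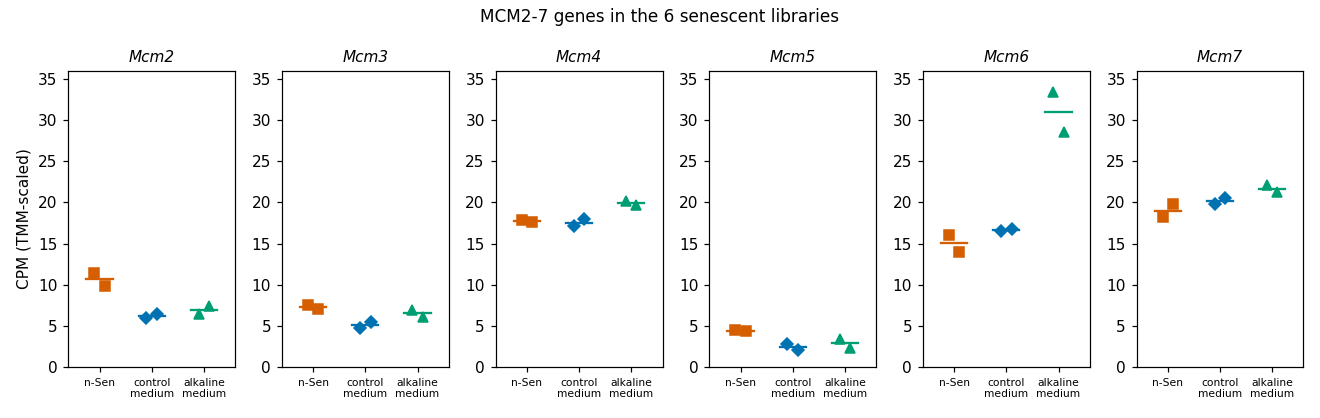
Level of the 6 MCM2-7 genes in the 6 senescent libraries, in TMM-scaled CPM on a linear axis from 0; each point is 1 library and each line the group mean. Mcm6 stands at 33.5 and 28.5 CPM in alkaline medium against 16.5 and 16.8 CPM in control medium, and for Mcm2, Mcm3, Mcm4 and Mcm7 both alkaline points also lie above both control points, by less.

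Gins3, a GINS subunit, measured 4.49 and 4.68 CPM in control and 6.29 and 6.41 CPM in alkaline medium, with no overlap. Its log2 fold change was 0.46 ± 0.15 SE (95% interval 0.14 to 0.78, edgeR adjusted p = 0.0354). The call was lost in DESeq2 (adjusted p = 0.0992) and without any 1 of the 4 libraries of the comparison (edgeR adjusted p = 0.0704 to 0.128), so 5 of 10 alternatives kept it. The other GINS genes did not pass: Gins1 had an interval of -1.20 to 1.08, Gins2 of -0.38 to 0.06 and Gins4 of -0.40 to 0.04. Both alkaline libraries of Gins2 lay under both control libraries, at 12.9 and 12.3 against 14.1 and 13.9 CPM.

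Over the 38 replication genes, 2 were called higher, against 9.58% of the 19129 genes tested, and 0 lower, against 10.4%. At an unadjusted p under 0.05, edgeR gave 3 higher and 0 lower. No share of all genes was counted at that threshold. DESeq2's adjusted p gave 1 higher and 0 lower, against 1587 and 1554 among all genes. The libraries did not overlap for 10 genes in the higher direction and for 3 in the lower, against 28.6% and 28.1% of all genes tested. The median log2 fold change was 0.08, beside -0.01 over all genes. Their summed level was 307.1 and 297.1 CPM with control and 329.7 and 320.6 CPM with alkaline medium, far under the 2266 and 2212 CPM of proliferating cells. For 16 of the 36 genes not called, the 95% interval lay within a log2 change of 0.5 in either direction, and for 29 within 1. The 7 whose interval passed 1 (Cdc6, Timeless, Gins1, Mcm10, Pole2, Ticrr and Prim1) all had under 5 CPM in senescent cells. For Cdc6, 14 and 34 counts with control and 40 and 30 with alkaline medium gave an interval of -0.29 to 1.83.

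**Figure D5:**
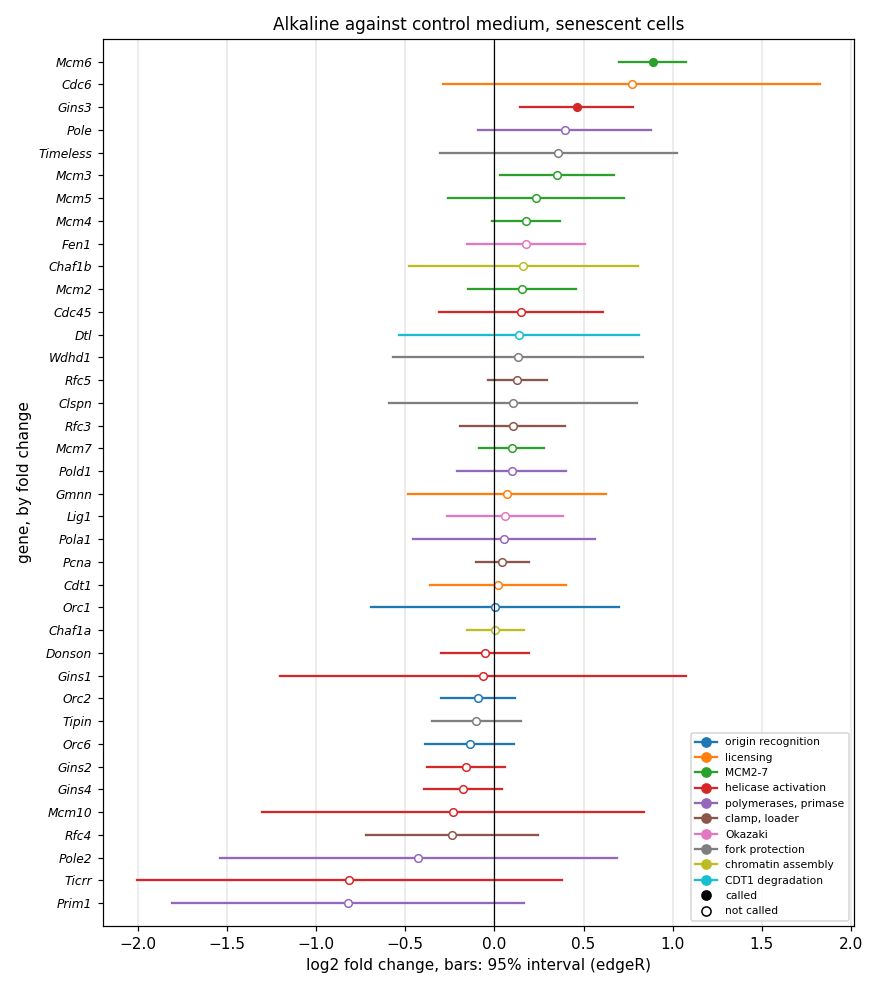
Log2 fold change of each replication gene in alkaline against control medium with its 95% interval, coloured by role; filled points passed the test. Mcm6 at 0.89 and Gins3 at 0.46 are filled, and the wide intervals belong to genes with few counts in senescent cells such as Cdc6 and Ticrr.

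Prim1 had the lowest fitted log2 fold change, with levels of 0.739 and 0.925 CPM in control and 0.396 and 0.546 CPM in alkaline medium, with no overlap. Its log2 fold change was -0.82 (95% interval -1.81 to 0.16, edgeR adjusted p = 0.261), and the adjusted p was 0.0466 with all 8 libraries in the fit. Pcna, the most abundant of the 38 per kilobase in proliferating cells (107 CPM per kb), measured 35.6 and 33.4 against 36.8 and 34.8 CPM (-0.11 to 0.20). Orc2, Orc6 and Cdt1 had intervals of -0.30 to 0.11, -0.39 to 0.11 and -0.36 to 0.40. Of the further replication genes, 42 of the 44 were tested, with 3 higher and 2 lower at an unadjusted p under 0.05. Called were 3 higher and 0 lower, against 9.58% and 10.4% of all genes tested. The 3 were Rpa1, a subunit of the single-strand binding protein, at 46.2 and 43.4 against 53.1 and 53.0 CPM (log2 fold change 0.23 ± 0.063 SE, adjusted p = 0.00942), Ddb1 (log2 fold change 0.16 ± 0.037 SE, adjusted p = 0.00374) and Cul4b (log2 fold change 0.17 ± 0.060 SE, adjusted p = 0.0477), both parts of the ligase that works with DTL. Mitosis markers summed to 45.5 and 46.8 CPM in control and 38.9 and 42.9 CPM in alkaline medium, with 0 of 12 called by edgeR and 2 lower and 0 higher at an unadjusted p under 0.05. Macrophage markers were called lower for 7 of 12, summing to 1196 and 1130 against 1053 and 1053 CPM. Fibroblast markers were called lower for 6 of 10 and higher for 3, summing to 34943 and 38866 against 39116 and 39804 CPM. The part of these marker sets in the change of Mcm6 and Gins3 was not tested.

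Control medium was also set against n-Sen. These groups come from separate tables, so the medium, the table and any batch cannot be told apart, and the comparison shares the control libraries with the one above. Of the 38 replication genes, 7 were called lower (Mcm2, Mcm3, Mcm5, Pola1, Prim1, Pole and Clspn) and 0 higher, against 4.96% and 6.18% of the 20215 genes tested by edgeR. At an unadjusted p under 0.05 the counts were 15 lower and 3 higher, with no share of all genes counted at that threshold. DESeq2's adjusted p gave 9 lower and 0 higher, against 1085 and 1159 among all genes. The libraries did not overlap for 18 genes in the lower direction and 6 in the higher, against 26.2% and 25.8% of all genes. Mcm2 measured 11.4 and 9.91 CPM in n-Sen and 5.93 and 6.41 CPM in control medium (log2 fold change -0.79 ± 0.099 SE, adjusted p = 9.36e-06). Mcm5 measured 4.48 and 4.39 against 2.75 and 2.09 CPM (log2 fold change -0.87 ± 0.16 SE, adjusted p = 0.000656). Mcm4 and Mcm7 had 95% intervals of -0.17 to 0.13 and -0.07 to 0.24. Mcm2 and Mcm5 were the ones called in 10 of 10 alternatives. The calls of Mcm3, Clspn, Pola1, Prim1 and Pole were lost when 1 library was left out, at a highest edgeR adjusted p of 0.0692, 0.0636, 0.0958, 0.126 and 0.248: Mcm3 without control medium replicate 1, Clspn without n-Sen replicate 1, Pola1 and Pole without either of these, and Prim1 without control medium replicate 1 or n-Sen replicate 2. Pole also lost its call in DESeq2 (adjusted p = 0.0590) and Prim1 with edgeR on only the 4 libraries compared (adjusted p = 0.0847).

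Mcm6 held 16.1 and 14.0 CPM in n-Sen, 16.5 and 16.8 CPM with control medium and 33.5 and 28.5 CPM with alkaline medium. Mcm2 stood at 6.44 and 7.37 CPM in alkaline medium, and Mcm3 at 6.96 and 6.14 CPM, between control medium and n-Sen in both cases by their means. Mcm5 stood at 3.42 and 2.32 CPM and Prim1 at 0.396 and 0.546 CPM. Gins3 held 4.01 and 4.15 CPM in n-Sen and 6.29 and 6.41 CPM with alkaline medium. Pole, Pola1 and Clspn stood at 2.602 and 3.68, 2.28 and 2.05 and 1.04 and 1.46 CPM there, against 4.46 and 3.30, 3.86 and 3.07 and 2.27 and 1.91 CPM in n-Sen. Mitosis markers were also called lower in control medium than in n-Sen for 3 of 12, and their part in these values was not tested. Of the 44 further genes, Rpa1 (log2 fold change -0.27 ± 0.059 SE, adjusted p = 0.00438) and Cul4b (log2 fold change -0.21 ± 0.061 SE, adjusted p = 0.0294) were called lower and Pole3, a small subunit of the leading strand polymerase, higher (log2 fold change 0.32 ± 0.070 SE, adjusted p = 0.00353). Over all genes tested, 4.96% were called lower and 6.18% higher.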

How the data were processed

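Polyadenylated RNA of 8 libraries (2 per group) was sequenced with a directional dUTP kit, per the labels' protocols. The submitters' processing notes name build mm10, HISAT2 2.1.0, Subread 2.0.2 with featureCounts, fastp 0.23.2 and DESeq2 1.34.0, with no settings. The authors deposited 2 tables of estimated counts per Ensembl gene, of 4 libraries each. They are expected counts and not whole numbers: 33.1% of the deposited nonzero values are fractional, and the strand setting of the counting is not given in the sources used here. Reads may therefore be shared between genes, those without overlapping exons included.

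Each value was rounded and tested in edgeR 4.0.16 (R 4.3.3) by glmQLFTest after filterByExpr and TMM scaling. Benjamini-Hochberg adjustment ran over all genes tested, and a call needed an adjusted p under 0.05. The first 2 comparisons were fitted on their own 4 libraries, and control medium against n-Sen in a fit of all 8. Intervals are at 95%. The lowest replication gene count was 451 in a proliferating and 11 in a senescent library. Library totals of 40608517 to 54183060 put 3 counts at 0.07434 CPM or less in every library. Counts carry no molecular identifiers, so this limit covers counting error only.

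All 38 genes are named, by role. Of the 44 further genes, those called against the list's main direction and the 3 of smallest adjusted p in each direction are named. Further subunits of the origin recognition complex, the polymerases and primase are named as well. The members and lists were chosen with earlier results of these data known. The alternatives were DESeq2 size factors, the DESeq2 1.42.0 Wald test, no filter, no rounding, the other set of libraries in the fit, the replicate number as a block, and leaving out each library. The fits were tested on simulated data. Windows for promoters came from RefSeq (GRCm38.p6).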

Additional observations from a re-analysis of the deposited data

How the results depend on the processing

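The 38 calls of lower replication genes in n-Sen held in 10 of 10 alternatives, and the median log2 fold change ran from -3.53 to -3.39 when 1 library was left out, against -3.51. In alkaline against control medium, 2 replication genes were called higher by edgeR, 1 by DESeq2 and 1 (Mcm6) without any 1 library. With all 8 libraries in the fit, 3 were called higher (Mcm3 as well) and 1 lower (Prim1), and none was lower otherwise. The median of 0.08 ran from -0.00992 without alkaline replicate 1, where its sign turned, to 0.0952. Of the 34 genes called under no setting there, 20 changed sign in some setting. The directions given above for uncalled genes are therefore those of the main fit and its libraries, and are not read as changes. The further replication genes gave 0 to 1 lower and 1 to 4 higher without 1 library, against 0 and 3.

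In control medium against n-Sen, leaving out 1 library gave 4 to 8 replication genes lower, against 7, and 0 to 1 higher, against 0. Without the filter on low counts, 1 was higher. The further genes, 2 lower and 1 higher, gave 4 lower with DESeq2 size factors, 4 with DESeq2, 5 lower and 2 higher with no filter, and 0 to 1 lower and 1 to 2 higher without 1 library. Over all genes the calls fell from 2253 to between 1181 and 1382 without 1 library; such fits have 1 sample in an arm, which is assumed to vary like the others. Of the 20 replication genes under 5 CPM in senescent cells, 7 not called in alkaline against control medium had an interval that passed a log2 change of 1, and 0 of those at 5 CPM or more and not called did.

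The replicate numbers were shared between groups, but same-numbered libraries did not deviate together (correlation over genes -0.0142, -0.00709 and -0.00308), so they are not treated as pairs. With the replicate number as a block, the replication genes called were 38 lower in the first comparison, 2 higher in the second and 7 lower in the third, as without it.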
